A study of Mus musculus with 3 samples.

Results

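Spliced host genes of small nucleolar RNAs (snoRNAs) carried peaks of histone H3 trimethylated at lysine 36 (H3K36me3) in mouse regulatory T cells (Treg cells). In the spleen these peaks stood at the 18.6th to the 97.4th percentile of all peaks, and in the large intestine (LI) at the 2.97th to the 85.9th. The lowest in the spleen, that of Snhg3, lay wholly in the coding gene Rcc1. In LI the signal was lower by more than counting error in the peaks of Snhg6 and Snhg12 and in the first of the 2 peaks of Snhg1. In the other peaks the counting interval of the difference, with a read taken to cover 200 bp, included 0. The genes were 8 non-coding hosts, Gas5, Snhg1, Snhg3, Snhg5, Snhg6, Snhg8, Snhg12 and Snhg15, out of 55450 genes of all types in the GENCODE M21 annotation. A peak was counted for a gene when its midpoint lay in the annotated gene body. There were 7 such peaks out of 120910 in all, in 6 of the 8 genes, while Snhg5 and Snhg8 had none. The rule used position only and no measured value.

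The mark was profiled by chromatin immunoprecipitation sequencing (ChIP-seq) in CD3+CD4+YFP+ cells sorted from untreated C57BL/6 mice with the Foxp3-YFP genotype, in which a Cre-YFP fusion is expressed from Foxp3, the lineage gene of Treg cells. The methods name this strain Foxp3Cre-YFP. Both groups shared it, and the methods give only a general range of young adult ages for the in vivo studies, with no separate age for the ChIP-seq mice. There was 1 library from spleen and 1 from LI, made by pooling cells from female and male mice, and another library of input chromatin from splenic Treg cells was not analysed here. With 1 library a tissue no difference has a replicate check, no p-value was computed, and the intervals given cover counting error only. In such bulk chromatin, fewer cells carrying the mark and less mark per cell cannot be told apart.

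H3K36me3 is deposited by Setd2, which travels with elongating RNA polymerase II, so the mark lies over transcribed gene bodies and usually increases toward their 3′ ends. snoRNA host genes are transcribed and spliced like messenger RNA precursors, but most snoRNAs in vertebrates are cut out of the introns, and the spliced exons of non-coding hosts such as Gas5 are often short-lived in the cytoplasm, where translation exposes them to nonsense-mediated decay. Box C/D snoRNAs guide 2′-O-methylation of ribosomal and other RNAs, and box H/ACA snoRNAs guide the change of uridine to pseudouridine. A host transcript thus can be made at a high rate without building up, and chromatin marks of transcription report on a different step than the level of the spliced RNA.

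The 8 host genes held 28 annotated snoRNA genes, of which 27 were matched by position to a RefSeq sequence (GRCm38.p6, the assembly behind mm10). By name 20 were box C/D and 7 box H/ACA, and the remaining one, Mir5117 in Gas5, has a microRNA name. Names in capitals are RefSeq product names of mouse loci without a symbol. Gas5 held 9, Snhg1 held 8, Snhg12 held 4, Snhg3 and Snhg5 held 2 each, and Snhg6, Snhg8 and Snhg15 held 1 each. The sequences below, 5′ to 3′ on the strand of the host, were chosen to show the snoRNAs at the edges of the Gas5 and Snhg1 peaks and those inside the Snhg6 and Snhg12 peaks. Capitals mark a C box spelled TGATGA in the first 20 bases and a D box spelled CTGA in the last 12 bases, the conserved ends of box C/D snoRNAs, which were searched on the host strand only. SNORD74 (chr1:161035394-161035473, plus strand) is the first snoRNA of Gas5 and lay outside its peak, SNORD75 (chr1:161035850-161035911, plus) is the first inside it, and SNORD81 (chr1:161038308-161038383, plus) is the last.
SNORD74: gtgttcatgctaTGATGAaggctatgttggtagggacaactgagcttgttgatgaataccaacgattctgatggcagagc
SNORD75: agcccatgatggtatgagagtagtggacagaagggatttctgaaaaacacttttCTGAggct
SNORD81: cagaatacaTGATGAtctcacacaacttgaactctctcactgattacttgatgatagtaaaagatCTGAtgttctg
In Snhg1, SNORD25 (chr19:8723993-8724064, plus) and SNORD26 (chr19:8724251-8724325, plus) belonged to a short first peak, SNORD26 only in part, and SNORD27 (chr19:8724532-8724601, plus) and Snord22 (chr19:8725866-8725991, plus) are the first and the last of the long second peak.
SNORD25: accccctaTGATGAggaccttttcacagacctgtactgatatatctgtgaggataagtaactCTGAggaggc
SNORD26: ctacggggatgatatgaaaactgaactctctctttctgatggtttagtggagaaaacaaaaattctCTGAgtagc
SNORD27: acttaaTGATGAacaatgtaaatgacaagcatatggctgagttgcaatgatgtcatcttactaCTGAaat
Snord22: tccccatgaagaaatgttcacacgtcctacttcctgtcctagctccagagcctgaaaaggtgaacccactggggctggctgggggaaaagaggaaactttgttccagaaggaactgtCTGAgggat
Snord87 (chr1:9942470-9942543, minus) is the single snoRNA of Snhg6, whose peak had the lowest LI to spleen ratio of the 7. Snora44 (chr4:132309953-132310069, plus) and Snora61 (chr4:132310307-132310368, plus), both of the H/ACA class, and the C/D snoRNA Snord99 (chr4:132310703-132310758, plus) lay in the Snhg12 peak.
Snord87: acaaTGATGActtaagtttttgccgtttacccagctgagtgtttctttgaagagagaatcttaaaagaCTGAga
Snora44: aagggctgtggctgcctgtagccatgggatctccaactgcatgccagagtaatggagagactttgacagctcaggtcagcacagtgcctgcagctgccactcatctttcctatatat
Snora61: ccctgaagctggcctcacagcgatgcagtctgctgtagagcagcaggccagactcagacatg
Snord99: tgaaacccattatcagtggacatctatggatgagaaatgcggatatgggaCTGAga
Both boxes so spelled were found in 13 of the 20 C/D snoRNAs, all of 60 to 83 bases. These 13 were 72.2% of the 18 C/D snoRNAs of that range of lengths, and 184 of 262 (70.2%) of all RefSeq snoRNAs of the same range, of any class, held both. A snoRNA without these letters may hold another spelling of the box. Some copies within a host were nearly the same: Snord50a and Snord50b of Snhg5 differed at 1 of 72 bases, C50A counted from the 5′ end of Snord50a, and Snora73a and Snora73b of Snhg3 at 7 of 205 bases.

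The whole peak set had a median length of 456 bp and a median level of 10.4 RPKM in spleen and 10.5 RPKM in LI, where RPKM is mean read coverage over the peak per kilobase, scaled to the sequencing depth. The steps between values corresponded to 29600000 mapped reads in spleen and 38100000 in LI. Treg marker genes carried peaks in 6 of 6 cases, with 1777 RPKM summed in spleen and 1475 in LI, and without Ikzf2, which held most of that signal, with 572 and 625 RPKM. Of 5 epithelial markers 2 carried peaks, with summed levels of 29.9 and 59.8 RPKM, and Cdh1, Krt8 and Krt20 had none. Of the B cell markers Cd79a and Pax5 did, with 51.3 and 39.7 RPKM summed over both genes, and Ms4a1 had none. Of 4 myeloid markers 1 did, with 14.7 and 16.3 RPKM, and Itgam, Lyz2 and Spi1 had none. The part of other cells in the differences below was not tested.

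**Figure D1:**
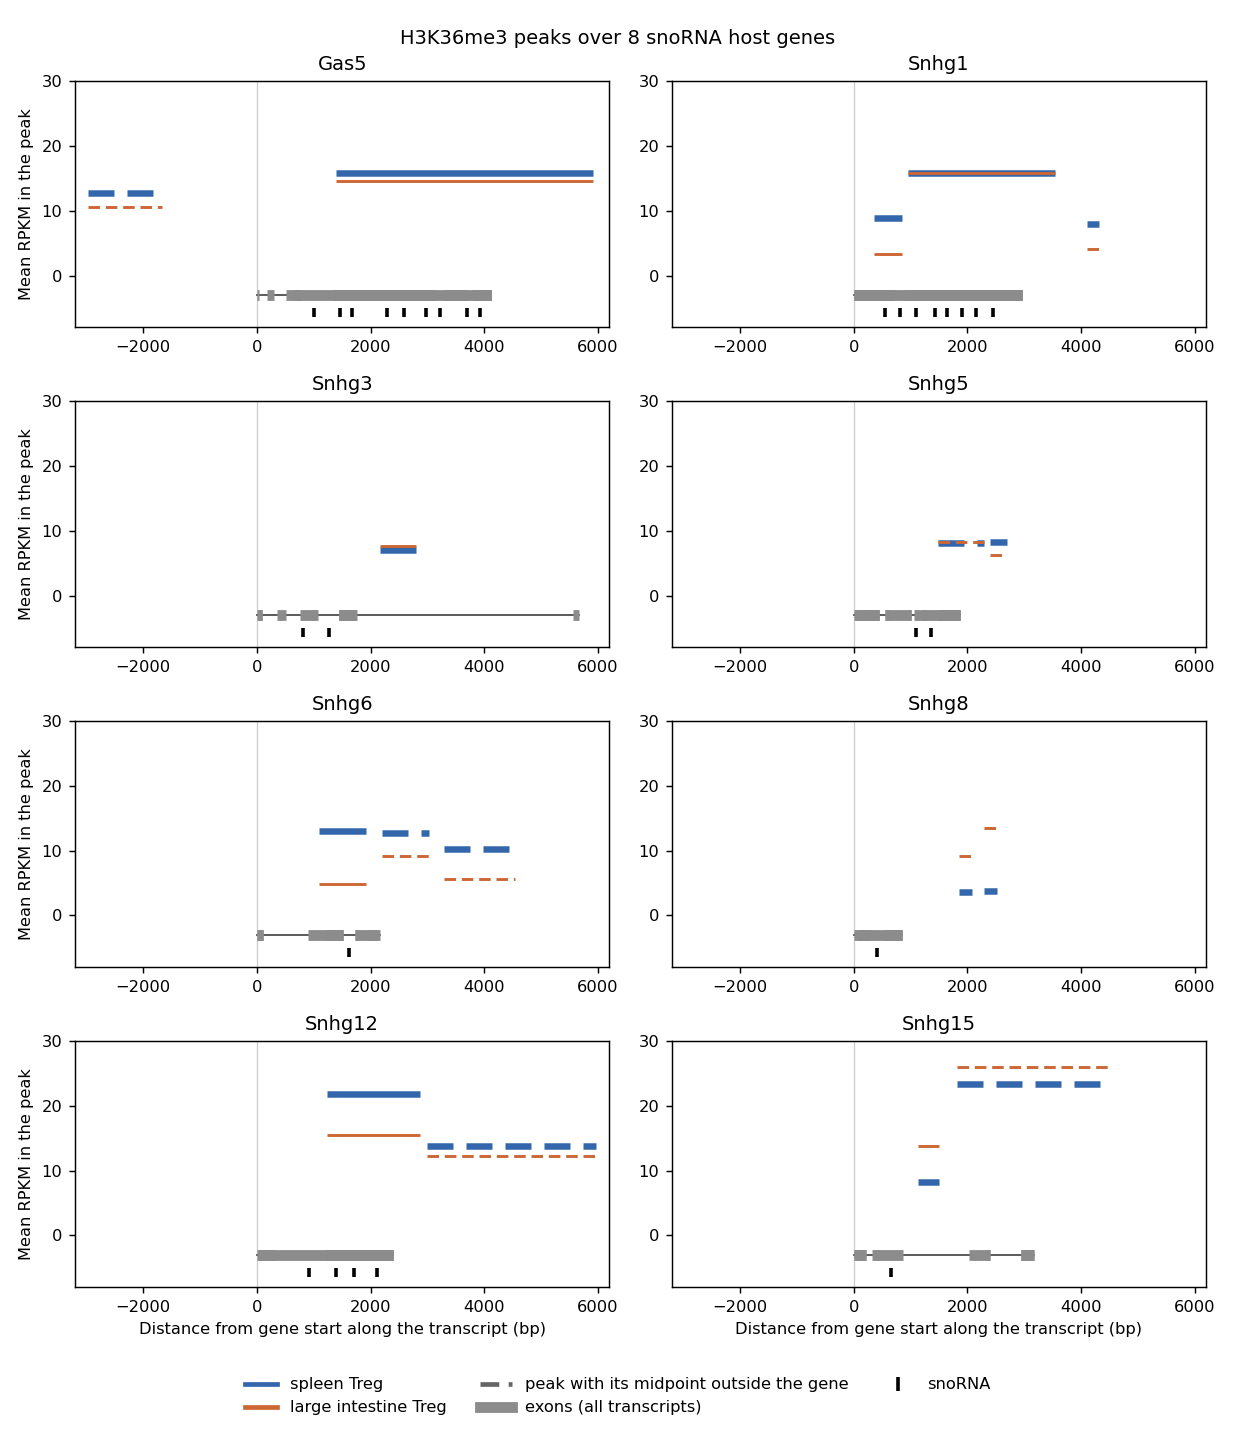
H3K36me3 peaks over the 8 host genes, with mean RPKM in the peak on the vertical axis and distance from the gene start along the transcript in bp on the horizontal axis; thick blue bars are spleen, thin orange bars LI, dashed bars are peaks whose midpoint lies outside the gene, and grey boxes and black ticks below 0 are exons and snoRNAs. No bar crosses a gene start, and the bars of Gas5, Snhg1, Snhg5, Snhg12 and Snhg15 cross the gene end.

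All but the first Snhg1 peak lay over the middle or the 3′ side of the host genes, and none of the 6 genes with a peak had a peak on its start, whereas 9.80% of the 11946 genes with a peak did, 4.47% of the coding and 28.6% of the non-coding ones. A peak crossed the gene end in 4 of these 6 genes (66.7%), against 38.2% of all genes with a peak. Among other snoRNA hosts with a peak, described below, the end was crossed in 8 of 12 non-coding genes (66.7%) and in 47.7% of coding genes. Their starts carried a peak in 8.33% and 4.06%. The peaks that crossed the ends of Snhg15 and Snhg5 had their midpoint outside the body. The host genes are short, with a median body of 3070 bp against 20187 bp over all genes with a peak. A median of 51.7% of the body lay in peaks, those with the midpoint outside it included, against 36.3%. The median share was 44.3% in the other non-coding hosts and 52.1% in the coding hosts. Of the 28 snoRNA genes 19 lay wholly in a peak, 1 in part and 8 in none. The first snoRNA from the 5′ end lay outside the peaks in Gas5, Snhg3, Snhg12 and Snhg15, and inside them in Snhg1 and Snhg6.

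Gas5 is the host of a row of C/D snoRNAs, and its spliced RNA is known as a growth arrest transcript. The gene (ENSMUSG00000053332.13, mm10 chr1:161034422-161038539, plus strand, 4118 bp) had 1 peak of 4535 bp at chr1:161035809-161040343, which began 1387 bp after the gene start, covered 66.3% of the body and ran 1804 bp past the gene end. The peak held 8 of the 9 snoRNAs, from SNORD75 to SNORD81, and no coding gene. Its level was 15.9 RPKM in spleen and 14.6 RPKM in LI, at the 88.7th and 80.8th percentile of all peaks. The log2 ratio of LI over spleen, scaled to the library totals, was -0.17, with a 95% counting interval of -0.42 to 0.09. The interval takes a read to cover 200 bp, and at 75 bp, the read length, it was -0.32 to -0.01, so that whether it includes 0 depends on this length. Peaks with as low a GC content as this one (40.7%) had a median ratio of -0.18, and the Gas5 ratio relative to that median was 0.01.

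Snhg1 hosts 8 C/D snoRNAs in successive introns. The gene (ENSMUSG00000108414.1, chr19:8723475-8726443, plus, 2969 bp) had 2 peaks that together covered 84.0% of its body, the largest share of the 8 genes. The first peak, chr19:8723831-8724320 (490 bp), held SNORD25 whole and had 8.89 RPKM in spleen and 3.29 RPKM in LI. Its log2 ratio was -1.35 (-2.59 to -0.11), from about 12.9 and 6.15 reads if a read covers 200 bp. The second peak, chr19:8724440-8727019 (2580 bp), held SNORD27 to SNORD31 and Snord22 and ran 576 bp past the gene end. It had 15.9 RPKM in spleen and 15.8 RPKM in LI, a log2 ratio of -0.05 (-0.38 to 0.28). The lower LI signal of the gene thus came mainly from the short 5′ peak, whose ratio was -0.79, within 2-fold, with a pseudocount of 5 RPKM. The long peak over 6 of the 8 snoRNAs differed little between the tissues. Summed over both peaks, which gives each peak the same weight, Snhg1 had 24.8 RPKM in spleen and 19.1 RPKM in LI and a log2 ratio of -0.41 (-0.82 to 0.01), or -0.66 to -0.15 at 75 bp a read. With peaks weighted by length the ratio was -0.13.

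Snhg6 hosts the C/D snoRNA Snord87. The gene (ENSMUSG00000098234.7, chr1:9941959-9944118, minus, 2160 bp) had 1 peak of 826 bp at chr1:9942200-9943025, which covered 38.2% of the body, held Snord87 and was 73.6% exonic. In spleen its level was 13.1 RPKM, at the 74.9th percentile of all peaks, and in LI 4.86 RPKM, at the 7.93rd percentile. Its LI level was 0.382 times that of spleen, a log2 ratio of -1.39 (-2.20 to -0.57), the largest difference among the 6 genes. The reads behind it were about 32.0 in spleen and 15.3 in LI, and with a pseudocount of 5 RPKM the ratio was -0.92, within 2-fold. With 17.9 RPKM over both libraries Snhg6 fell under the minimum of 20 RPKM set for the count of genes. Of the 11946 genes with any peak, 3.84% were past 2-fold and higher in spleen. The adjacent peaks downstream, both in the coding gene Mcmdc2 that runs toward Snhg6 on the other strand, were also lower in LI, with log2 ratios of -0.50 (-1.20 to 0.20) and -0.85 (-1.51 to -0.18).

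Snhg12 hosts the H/ACA snoRNAs Snora16a, Snora44 and Snora61 and the C/D snoRNA Snord99. The gene (ENSMUSG00000086290.9, chr4:132308623-132311024, plus, 2402 bp) had 1 peak of 1640 bp at chr4:132309848-132311487, which covered 49.0% of the body, held the last 3 of the 4 snoRNAs and ran 463 bp past the gene end. Its spleen level, 21.8 RPKM, was the highest of the 7 peaks and stood at the 97.4th percentile of all peaks. In LI it had 15.4 RPKM, at the 84.5th percentile. The LI level was 0.692 times that of spleen, a log2 ratio of -0.53 (-0.92 to -0.14), and after the GC correction -0.50. The next peak downstream, mostly in the coding gene Trnau1ap on the opposite strand, had a ratio of -0.22 (-0.56 to 0.12).

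Snhg15 hosts the H/ACA snoRNA Snora9 and was the one of the 4 genes above 20 RPKM with more signal in LI. The gene (ENSMUSG00000085156.7, chr11:6525591-6528760, minus, 3170 bp) had 1 peak with its midpoint in the body, chr11:6527249-6527625 (377 bp), which lay in an intron and held no snoRNA. It had 8.27 RPKM in spleen and 13.8 RPKM in LI, a log2 ratio of 0.66 (-0.41 to 1.73), or 0.00 to 1.31 at 75 bp a read. A longer peak of 2735 bp, chr11:6524201-6526935, overlapped the 3′ side of the gene but had its midpoint 23 bp past the gene end, and so did not count under the midpoint rule. The level of this long peak was 23.3 RPKM in spleen and 26.0 RPKM in LI, at the 98.1st and 98.2nd percentile of all peaks, and a ratio of 0.11 (-0.16 to 0.37). With both peaks summed the ratio of Snhg15 was 0.28. Of all peaks that touch the 8 genes, this one had the highest level in both tissues.

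Snhg3 hosts the H/ACA snoRNAs Snora73a and Snora73b and shares its start region with the coding gene Rcc1, the nuclear exchange factor for the GTPase Ran. The gene (ENSMUSG00000085241.7, chr4:132348014-132353686, minus, 5673 bp) had 1 peak of 635 bp, chr4:132350893-132351527, and this peak lay wholly in Rcc1 on the same strand and held no snoRNA. It had 7.06 RPKM in spleen and 7.67 RPKM in LI, a log2 ratio of 0.06 (-0.89 to 1.02). The remaining 6 peaks of Rcc1 had a summed ratio of -0.08 (-0.39 to 0.24). In RefSeq the body of Snhg3 is 1754 bp long and does not reach the peak, so that with RefSeq gene bodies 5 of the 8 genes had a peak. The signal cannot be assigned to Snhg3 apart from Rcc1.

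Snhg5 and Snhg8 had no peak by the midpoint rule. Snhg5, the host of Snord50a and Snord50b (ENSMUSG00000097195.9, chr9:88521050-88522929, minus, 1880 bp), was overlapped over 20.9% of its body by a peak of 816 bp, chr9:88520627-88521442, whose midpoint lay 15 bp past the gene end. Neither snoRNA lay in it, and its level was 8.04 RPKM in spleen and 8.23 RPKM in LI, a ratio of -0.01 (-0.82 to 0.79). Snhg8, the host of Snora24 (ENSMUSG00000104960.1, chr3:123507552-123508404, minus, 853 bp), was the shortest of the 8 genes, and 0% of its body lay in a peak. No signal over Snhg8 passed the authors' peak threshold in either tissue, which does not show that the gene lacks the mark. The 2 peaks within 2 kb downstream of Snhg8, of 241 bp and 234 bp, lay in the coding gene Prss12, which encodes a secreted serine protease. They had 3.77 and 3.63 RPKM in spleen and 13.4 and 9.18 RPKM in LI.

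**Figure D2:**
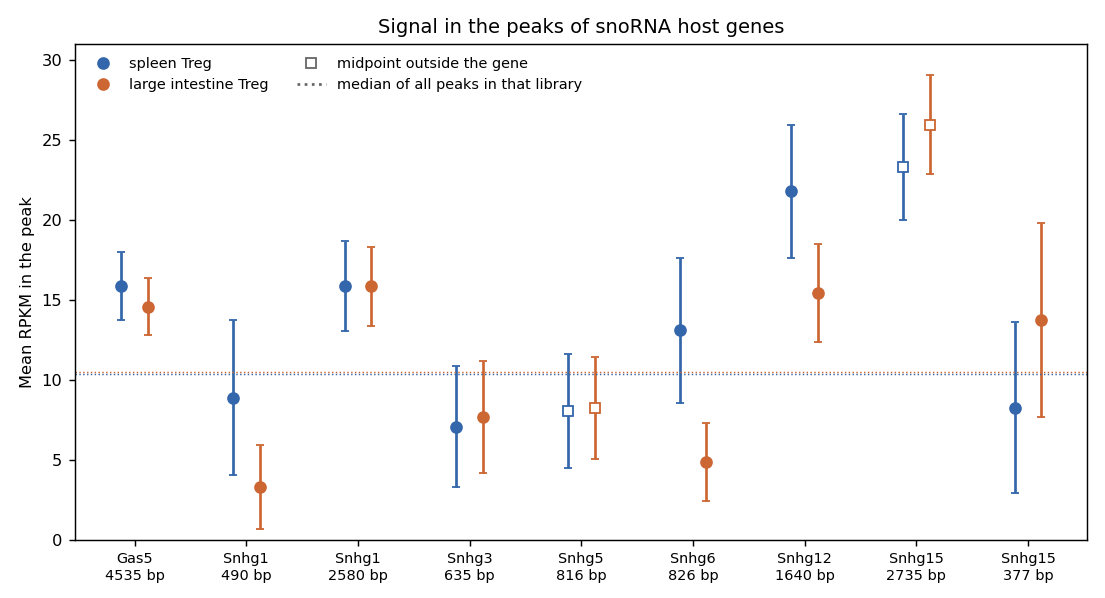
Mean RPKM of the 9 peaks that touch the host genes, by gene and peak length, in spleen (blue) and LI (orange), 1 library each; bars are approximate 95% counting intervals, open squares are peaks with the midpoint outside the gene, and dotted lines are the medians of all peaks, 10.4 and 10.5 RPKM. The bars of the 2 tissues separate only in Snhg6, where LI stands at 4.86 RPKM and spleen at 13.1 RPKM.

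In order of level in spleen the strongest midpoint peak of each gene ran Snhg12, Gas5, Snhg1, Snhg6, Snhg15 and Snhg3, from 21.8 to 7.06 RPKM. In LI the order was Snhg1, Snhg12, Gas5, Snhg15, Snhg3 and Snhg6, from 15.8 to 4.86 RPKM. In each tissue every gene overlapped its neighbours in this order within their counting intervals, whereas the intervals at its ends did not overlap. The 3 peaks of 1 kb or more, in Gas5, Snhg1 and Snhg12, had 15.9 to 21.8 RPKM in spleen and 14.6 to 15.8 RPKM in LI. All 28145 peaks of that length had medians of 14.0 and 14.5 RPKM, and upper quartiles of 17.3 and 18.5 RPKM, so that in LI all 3 stood between the median and the upper quartile.

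Of the 7 peaks 5 were lower in LI and 2 higher. The counting interval lay wholly below 0 in 3, the first peak of Snhg1 and those of Snhg6 and Snhg12, against 7.00% of all peaks. It lay wholly above 0 in 0, and the share of all peaks for this direction is not given here. The 2 peaks past 2-fold, in Snhg6 and Snhg1, were both among the 4 peaks under 1 kb, where 12.3% of all peaks were past 2-fold and higher in spleen. With a pseudocount of 5 RPKM both were within 2-fold. None of the 3 longer peaks was past 2-fold, as was the case for all but 2.58% of peaks of 1 kb or more. The ratios of short peaks scatter more: the SD of the log2 ratio was 0.88 over all peaks under 1 kb and 0.39 over longer ones.

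**Figure D3:**
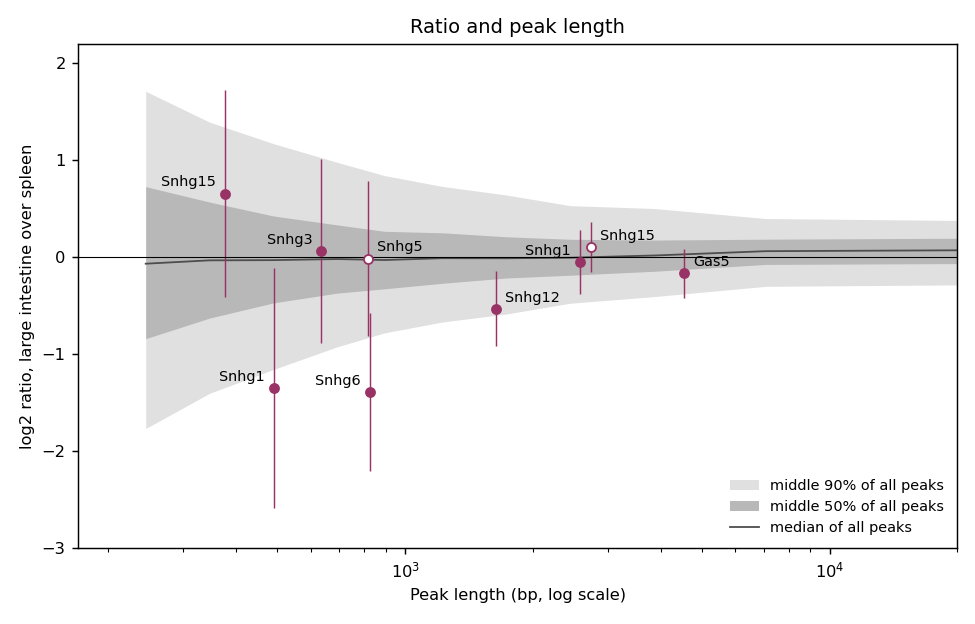
Log2 ratio of LI over spleen against peak length in bp (log axis) for the peaks that touch the host genes, with approximate 95% counting intervals; filled points have the midpoint in the gene, open points outside it, and the grey bands hold the middle 50% and 90% of all peaks of that length. The first Snhg1 peak and the Snhg6 peak lie below the lower edge of the wide band, and Gas5, the second Snhg1 peak and the long Snhg15 peak lie near 0.

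Counted by gene, 4 of the 6 host genes with a peak were lower in LI and 2 were higher. The interval lay wholly below 0 in 2 of them, Snhg6 and Snhg12, while this was so for 14.9% of all genes with a peak. Of the 4 host genes that reached 20 RPKM in the sum of the libraries 0 were past 2-fold, against 5.46% of the 10886 genes that reached that level. The median ratio of these 4 genes was -0.29, against 0.00 over all genes tested, and under the alternatives it ran from -0.29 to -0.09. With a sample of 4 genes and intervals as wide as those above, this median is a description only.

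**Figure D4:**
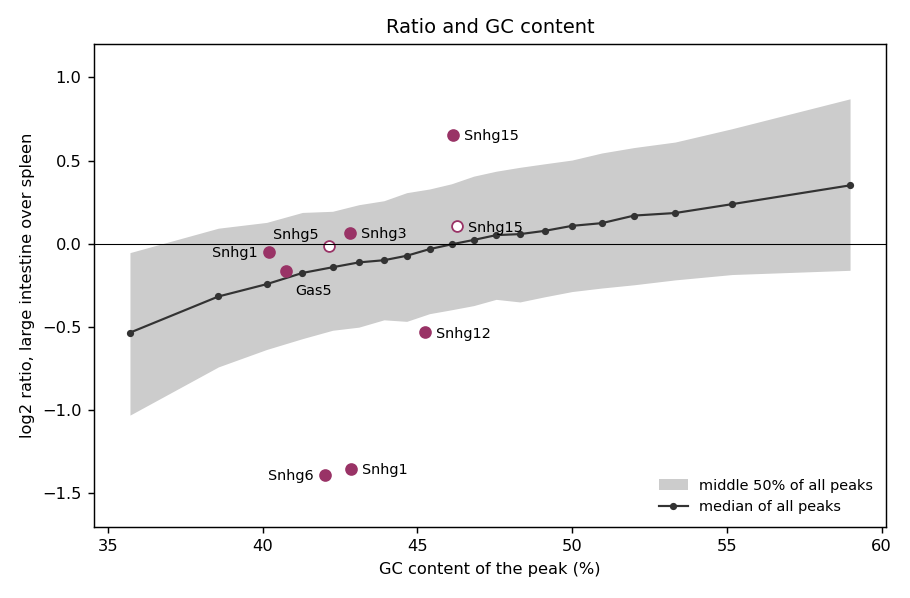
Log2 ratio of LI over spleen against GC content (%) of the peaks that touch the host genes; the line and the grey band are the median and the middle 50% of all peaks in 20 GC bins, which run from -0.53 in the lowest bin to 0.35 in the highest. Gas5 and the second Snhg1 peak lie on or above the line, and the Snhg6, Snhg12 and first Snhg1 peaks lie below the band.

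The ratio moved with base composition across the whole peak set. From the lowest to the highest of 20 bins of GC content the median log2 ratio of all peaks went from -0.53 to 0.35. The 7 host gene peaks, with 40.2% to 46.2% GC, were all below the median of all peaks, 46.5%. Relative to the median of peaks of like GC content, the log2 ratios were 0.01 for Gas5, -1.24 and 0.19 for the 2 peaks of Snhg1, 0.18 for Snhg3, -1.25 for Snhg6, -0.50 for Snhg12 and 0.66 for Snhg15. The lower LI signal of Snhg6, Snhg12 and the first Snhg1 peak was thus of similar size after the correction, and the small differences of Gas5 and the second Snhg1 peak turned in sign.

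The coding gene nearest to each host gene, chosen after the values had been seen except for Rcc1, was compared as local background. Zbtb37, which starts head to head with Gas5, had a summed ratio of -0.46 (-0.81 to -0.12) over 14 peaks. Mcmdc2 beside Snhg6 had -0.45 (-1.04 to 0.13) and Zfp949 beside Snhg5 -0.23 (-0.53 to 0.08). Slc3a2 beside Snhg1 had 0.05 (-0.11 to 0.22), Trnau1ap beside Snhg12 0.14 (-0.12 to 0.40) and Myo1g beside Snhg15 0.12 (-0.13 to 0.37). Prss12 beside Snhg8 had 7.40 RPKM in spleen and 22.6 RPKM in LI from 2 short peaks, with an interval of the ratio from 0.19 to 2.81. The interval over the whole of Trnau1ap lay just above that of Snhg12 (-0.92 to -0.14). The interval of the peak next to Snhg12, mostly in Trnau1ap (-0.56 to 0.12), overlapped it. The intervals of Mcmdc2 and Snhg6 overlapped as well. Whether the differences of the host genes are apart from those of their neighbours was not tested.

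Other genes that host snoRNAs were taken by position, as genes with an annotated snoRNA inside them on the same strand. Of 60 other non-coding hosts 12 had a peak and 9 reached 20 RPKM. Of these 9, 3 were higher in LI and 6 in spleen, with a median log2 ratio of -0.22. With peaks weighted by length the median was 0.01, and in the 6 hosts of named snoRNAs it was -0.04, with 3 higher in each tissue. With peaks that overlap a coding gene left out, only 5 of the 9 remained, with a median of -0.22. Gm11775 was past 2-fold, with 21.9 RPKM in spleen and 6.03 RPKM in LI and a ratio of -1.82 (-2.83 to -0.81). Snhg17 had -0.33 (-0.74 to 0.09), AI506816 -0.22, Gm28496 -0.08 and Cct6a, here annotated as a non-coding transcript, 0.05. Under 20 RPKM were Zfas1, a host of C/D snoRNAs, 2700038G22Rik and Snhg9. Zfas1 had 11.3 RPKM in spleen and a log2 ratio of -1.43 (-3.13 to 0.27), and 2700038G22Rik had -0.31 (-1.58 to 0.95). Snhg9 went the other way, with 3.82 RPKM in spleen, 9.33 RPKM in LI and a ratio of 1.14 (-0.37 to 2.66). It lies wholly within the coding gene Rps2 on the opposite strand, so this signal cannot be assigned to Snhg9 apart from Rps2. Summed over its 2 peaks, Rps2 had a ratio of 0.24 (-0.33 to 0.81).

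Of 259 coding genes that host snoRNAs, 191 reached 20 RPKM. Among them 72 were higher in LI and 119 in spleen, whereas over all 10886 genes the split was 5521 to 5365. Their median log2 ratio was -0.10, with the middle 50% from -0.26 to 0.10, and the median was -0.05 after the GC correction or with the values as deposited and -0.02 with the strongest peak of each gene. Past 2-fold were 4 higher in LI and 1 higher in spleen, against 3.42% and 2.04% of all genes at this level. Ppan, a ribosome biogenesis factor, had 1.63 (0.45 to 2.81), Ell2, an RNA polymerase II elongation factor, 1.14 (0.52 to 1.77), Zbed3 1.10 (0.06 to 2.13) and Frmd4b 1.01 (0.79 to 1.23), and Maged2 had -1.76 (-3.26 to -0.26). Among hosts with at least 100 RPKM the lowest were Top2a, the DNA topoisomerase of dividing cells, at -0.80 (-1.08 to -0.52), and Aven at -0.68 (-1.08 to -0.29). Some coding hosts overlap and share their peaks: 7 genes of the gamma protocadherin cluster had the same 4 peaks. With genes that share all their peaks counted once, the median over 184 values was -0.10. Hosts that share only part of their peaks, such as Gm20388 and Rpl13 inside it, stayed separate.

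Genes for the proteins of snoRNA particles had no common direction. The 4 box C/D core proteins had log2 ratios from -0.40 to -0.07, all below 0. Nop58 stood at -0.40 (-0.61 to -0.19), with 215 RPKM summed over 18 peaks in spleen and 169 in LI, Snu13 at -0.33, Nop56 at -0.14 and Fbl, the methyltransferase, at -0.07. Of the 4 box H/ACA proteins, Nhp2 had 1.28 (0.24 to 2.33) from 1 peak and Dkc1, the pseudouridine synthase, -0.16 (-0.53 to 0.22), while Gar1, at -0.82, was under 20 RPKM and Nop10 had no peak. The 9 assembly factors had a median of -0.10, 4 higher and 5 lower in LI. Naf1 stood at -1.05 (-2.21 to 0.11), Shq1 at -0.29, Znhit6 at -0.24 (-0.46 to -0.01), Ruvbl1 at 0.07 and Rpap3 at 0.11.

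Of 10 nonsense-mediated decay genes 3 were higher and 7 lower in LI, with a median of -0.15, which was -0.03 after the GC correction and -0.04 by the strongest peak alone. The interval lay wholly above 0 in 3 of them and wholly below 0 in 2, against 1951 and 1660 of the 10886 genes tested. Smg1, the kinase that phosphorylates Upf1, had -0.30 (-0.41 to -0.18) and Smg8 -0.28 (-0.67 to 0.10), while Smg6, an endonuclease, had 0.19 (0.07 to 0.31) and the helicase Upf1 0.35 (0.09 to 0.61). Of 13 debranching and exosome genes, which free and trim intronic snoRNAs, 2 were higher and 11 lower, with a median of -0.17, which was -0.10 after the GC correction and -0.04 with the strongest peak. Mtrex, the exosome helicase, had -0.23 (-0.37 to -0.09), the nuclease Dis3 -0.19 (-0.39 to 0.02) and Exosc10 0.08 (-0.04 to 0.19).

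**Figure D5:**
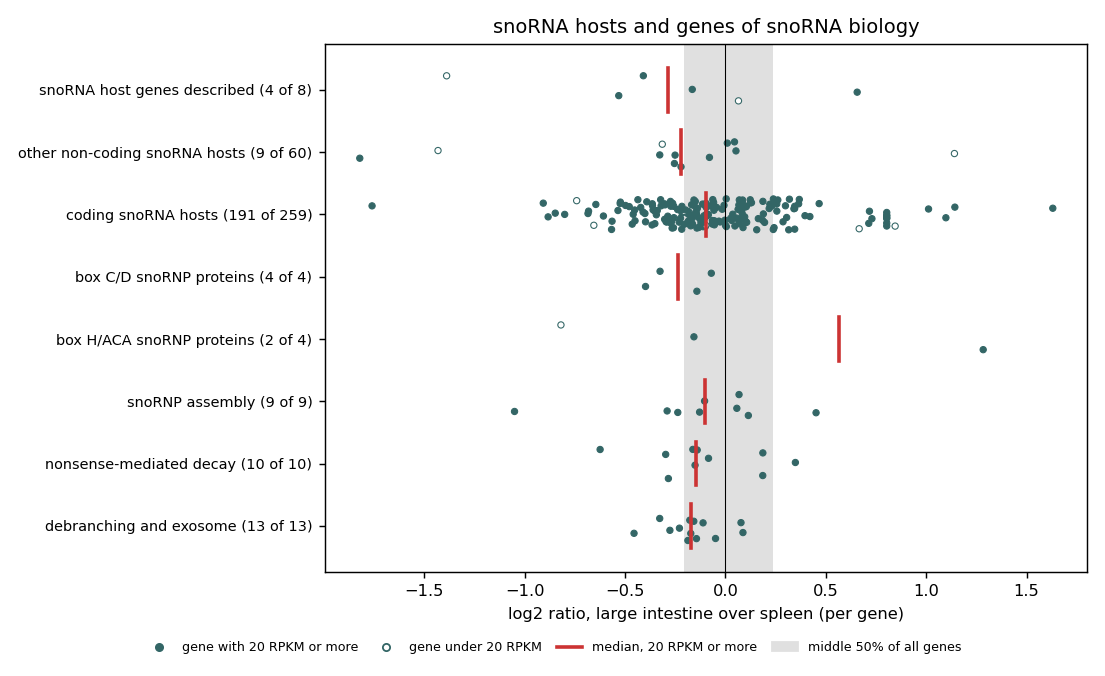
Log2 ratio of LI over spleen per gene for the described host genes and related gene lists, with the number of genes at or above 20 RPKM of all genes in the list; filled points are genes at or above 20 RPKM, open points genes under it, red lines medians of the filled points, and the grey band holds the middle 50% of all genes tested. The band shows the spread of single genes, not of medians. The points of the C/D proteins lie between -0.40 and -0.07, and those of the other lists fall on both sides of 0.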

How the data were processed

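H3K36me3 ChIP-seq was done in sorted splenic and LI Treg cells, 1 library each. Per the study's methods, the authors mapped 75-nt single-end reads to mm10, called peaks against input with MACS2 at p 0.01, merged the peaks of both tissues with bedtools, and averaged bamCoverage tracks over each peak. The submitters' processing notes also name FastQC and Bowtie2, without versions. The deposited values are RPKM, mean coverage per peak, although the table is labelled as counts: value times length was whole in steps of 1 read in a 20-bp bin, 1.69 RPKM in spleen and 1.31 in LI, within 0.05 for 100% of the 556 and 545 peaks with both ends on bin borders. So no count test was run.

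Peaks were given to every GENCODE M21 gene body that held their midpoint and summed per gene, so a sum grows with the number of peaks. The log2 ratio of LI over spleen used a pseudocount of 0.5 RPKM, which understates the change of low values. It was scaled to the total over all peaks (0.046 subtracted). Genes needed 20 RPKM over both libraries to enter the counts past 2-fold. Approximate 95% counting intervals took a read as covering 200 bp, treated reads as independent and cover counting error only. Any read extension is not given in the sources used here. Chromosome lengths fit GRCm38, with 0 of 21 chromosomes exceeded. GC content came from that genome, and the GC correction subtracted the median of 20 GC bins. Scripts in Python 3.11.15 with pandas 2.3.3, numpy 2.4.6 and scipy 1.17.1 were tested on simulated data.

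The 8 genes and the related lists were chosen with earlier results of these data known. Named were all 8 genes, list members past 2-fold, the 2 of each list farthest in each direction among genes with at least 100 RPKM, and coding genes under a host gene peak. Further genes (Snu13, Nop56, Fbl, Gar1, Snhg17, Zfas1, 2700038G22Rik, Snhg9 and the neighbours) were named after their values were seen. A marker gene of the lists is not reported here. RefSeq gene bodies, hosts of named snoRNAs only and the alternatives per peak and per list were added after seeing the data.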

Additional observations from a re-analysis of the deposited data

How the results depend on the processing

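Of 152 alternative values, 139 kept their direction and size class, 6 moved and 7 turned in sign, from main values between -0.22 and -0.05. Many of these values could not change. In the 5 genes with 1 midpoint peak, weighting by length or taking the strongest peak leaves the value as it is. The values per peak of these genes largely repeat those per gene. The count of 139 therefore overstates how stable the results are. Corrected for peak GC content, Gas5 went to 0.0047 as a gene and 0.010 as a peak, the second Snhg1 peak to 0.19, and the coding hosts to a median of -0.052. The coding hosts had -0.053 with the values as deposited, -0.023 with the strongest peak of each gene and -0.14 with hosts of named snoRNAs only. The debranching and exosome list had -0.040 with the strongest peak. Weighting peaks by length gave 0.0094 for the other non-coding hosts and 0.052 for the assembly factors, which had 0.17 with the strongest peak and 0.057 with any overlap. With no filter on low values 1 host gene, Snhg6, was past 2-fold. What causes these shifts was not tested. Snhg6 ran from -1.39 to -0.92, Snhg12 from -0.53 to -0.44, Snhg1 from -0.41 to -0.05, Snhg15 from 0.28 to 0.70 and Snhg3 from 0.02 to 0.17, and genes with a peak from 5 to 7, with Snhg5 added by any overlap. With reads taken to cover 75 bp, the intervals of Snhg1 (-0.66 to -0.15) and Gas5 (-0.32 to -0.01) no longer included 0, and that of Snhg15 began at 0.00. Without peaks on coding genes, Snhg3 and the coding lists gave no value, and 5 of the 9 other non-coding hosts remained. No paired analysis was possible because each tissue has 1 library, and none could be left out. Depth limits the short peaks most, with about 6.15 to 32.0 reads in those of Snhg1 and Snhg6.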
